A study of Mus musculus with 24 samples.

Results

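The 9 genes described here, Lyz2, Mrc1, Cd163, F13a1, Pf4, Ms4a7, Stab1, Lyve1 and Ccr2, are used as markers of border macrophages, or of the monocytes that can enter the brain from blood. They were taken from the 33000 genes of the count table by symbol, with no threshold on any value, and each symbol matched 1 row. The table holds 24 libraries made by 3'Pool-seq, a method that counts reads from transcript ends, from the frontal cortex of 3 wild-type (WT) mice and of 3 mice homozygous for GFAP-IL6, aged 3 months and labelled C57BL/6. Each mouse gave 4 libraries, since tagmentation was run on 2 ng and on 1 ng of cDNA, once in a set A and once in a set B. The labels do not explain these sets. GFAP-IL6 mice carry an Il6 transgene under the promoter of Gfap, an astrocyte gene, and WT mice carry none. In these samples the cytokine gene Il6 rose by 4.06 on the log2 scale (edgeR adjusted p = 0.000783) and Gfap by 2.44 (adjusted p = 1.59e-06), each higher in every GFAP-IL6 mouse than in every WT mouse.

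Border macrophages live at the edges of the brain, in the meninges, the choroid plexus and the spaces around blood vessels, and are separate from the microglia that fill the tissue itself. They take up protein and debris through scavenger receptors and lectins, and many carry Mrc1, Cd163, Stab1 and Lyve1, which microglia in healthy brain largely lack. Lyz2, by contrast, is carried by many myeloid cells, neutrophils and monocytes among them, and activated microglia can also express it. Dissected cortex is mostly neurons and glia, so transcripts of border cells are a small part of its RNA. In bulk tissue, more cells of a type and more RNA per cell cannot be told apart.

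Of the 9 genes, only Lyz2 was called different between genotypes. Its level, in CPM (counts as a part of the library total, scaled with TMM factors), was about 4 times as high in GFAP-IL6 cortex. The other 8 genes, with the scavenger receptors Mrc1, Cd163, Stab1 and Lyve1 among them, were not called in either direction. Calls needed an absolute log2 fold change above 1 and, after Benjamini-Hochberg adjustment, a p under 0.05 in edgeR's quasi-likelihood test on the 4 libraries of each mouse summed, with n = 3 mice per genotype. At that rule 1.23% of the 14621 genes tested were called, 1.20% higher and 0.0274% lower in GFAP-IL6 mice, and the calls among the 9 genes were 1 higher and 0 lower. All 9 genes passed the filter on low counts for this comparison.

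Lyz2 encodes lysozyme, which cuts the cell walls of bacteria, and lies on the minus strand of chromosome 10 at chr10:117277331-117282321 (mm10), with 4 exons. Reads of a 3' library fall near the transcript end, here an exon of 857 bases. In the last 500 bases of Lyz2, 35 of the 431 possible windows of 70 bases (8.1%) also occur in its paralogue Lyz1, so a read of 70 bases from such a window cannot be aligned uniquely. Lyz1 itself had 0 counts in every WT mouse and in GFAP-IL6 mouse 1, 2 counts in GFAP-IL6 mouse 2 and 1 in GFAP-IL6 mouse 3.

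The promoter of Lyz2 is shown beside those of Mrc1 and Pf4, the former a receptor gene and the latter a chemokine gene that were not called, so that the sequence upstream of the gene that rose can be set beside that of genes that were not called. Each window runs from 250 bases before to 50 bases after the start of the gene, 5' to 3' on the gene's own strand, in RefSeq GRCm38.p6, at chr10:117282223-117282522 (minus strand), chr2:14229164-14229463 (plus strand) and chr5:90772185-90772484 (plus strand). Capitals mark matches to 5 motifs searched on both strands.
Lyz2 promoter: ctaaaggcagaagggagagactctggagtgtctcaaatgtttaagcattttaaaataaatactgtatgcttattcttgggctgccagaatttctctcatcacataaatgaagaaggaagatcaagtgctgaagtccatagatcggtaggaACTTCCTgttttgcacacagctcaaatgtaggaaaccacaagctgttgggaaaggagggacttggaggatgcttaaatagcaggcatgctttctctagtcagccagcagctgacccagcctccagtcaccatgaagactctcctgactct
Mrc1 promoter: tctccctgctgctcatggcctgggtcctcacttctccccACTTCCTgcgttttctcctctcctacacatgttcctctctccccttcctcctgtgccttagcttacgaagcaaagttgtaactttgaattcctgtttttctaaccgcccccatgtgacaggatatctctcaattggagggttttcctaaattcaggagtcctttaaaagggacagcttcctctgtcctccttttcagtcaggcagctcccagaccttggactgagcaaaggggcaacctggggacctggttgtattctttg
Pf4 promoter: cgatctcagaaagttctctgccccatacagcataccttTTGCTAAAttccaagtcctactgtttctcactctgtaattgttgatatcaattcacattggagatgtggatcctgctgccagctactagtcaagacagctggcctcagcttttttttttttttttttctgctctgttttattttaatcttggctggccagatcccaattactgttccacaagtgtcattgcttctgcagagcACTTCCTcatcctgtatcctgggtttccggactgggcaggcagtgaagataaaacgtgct
The motifs were that of PU.1 (AGGAAGT), a factor of the myeloid lineage, and those of STAT (TTCNNNGAA), C/EBP (TTGCNNAA), AP-1 (TGANTCA) and ISRE (GAAA, any 2 bases, GAAA), the interferon response element. All 3 windows hold 1 match to the PU.1 letters, read on the other strand, and Pf4 also holds 1 match to the C/EBP letters. Of 32851 mouse promoter windows of the same length, 9.35% hold the PU.1 letters, 10.8% those of C/EBP, 8.30% those of STAT, 7.81% those of AP-1 and 3.44% those of ISRE. The STAT letters, of the family that IL-6 signals through, occurred in none of the 10 windows given for 8 of the 9 genes, and nor did those of ISRE. Elsewhere, F13a1 held 2 matches to the PU.1 letters in 1 of its 2 windows and Ms4a7 held 1 match to the AP-1 letters in 1 of its 2. The windows of Cd163, Stab1 and Ccr2 held no match to any of the motifs. The PU.1 letters were thus absent for Cd163, Stab1, Ccr2 and Ms4a7, and are not shared by the whole gene set. A match to such letters is a description of the sequence only.

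Lyz2 stood at 16.6, 19.0 and 18.8 CPM in the 3 WT mice and at 53.8, 69.7 and 92.4 CPM in the 3 GFAP-IL6 mice. The groups lay far apart, with the lowest GFAP-IL6 mouse well above the highest WT mouse. The means were 18.1 ± 1.31 CPM (SD, n = 3) and 71.9 ± 19.4 CPM (SD, n = 3). The edgeR log2 fold change was 2.01 (SE 0.161), a fold of 4.02 with a 95% interval of 3.17 to 5.10 and an adjusted p of 2.57e-06. By adjusted p Lyz2 ranked 15 of the 14621 genes tested. The spread was wider among GFAP-IL6 mice, whose order in Lyz2 was also their order in counted reads, at 9534116, 20641341 and 37582644. CPM is scaled for depth, and the part of depth in that order was not tested. The shallowest WT mouse, mouse 3 with 7852743 counted reads, sat at 18.8 CPM between the other two.

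**Figure D1:**
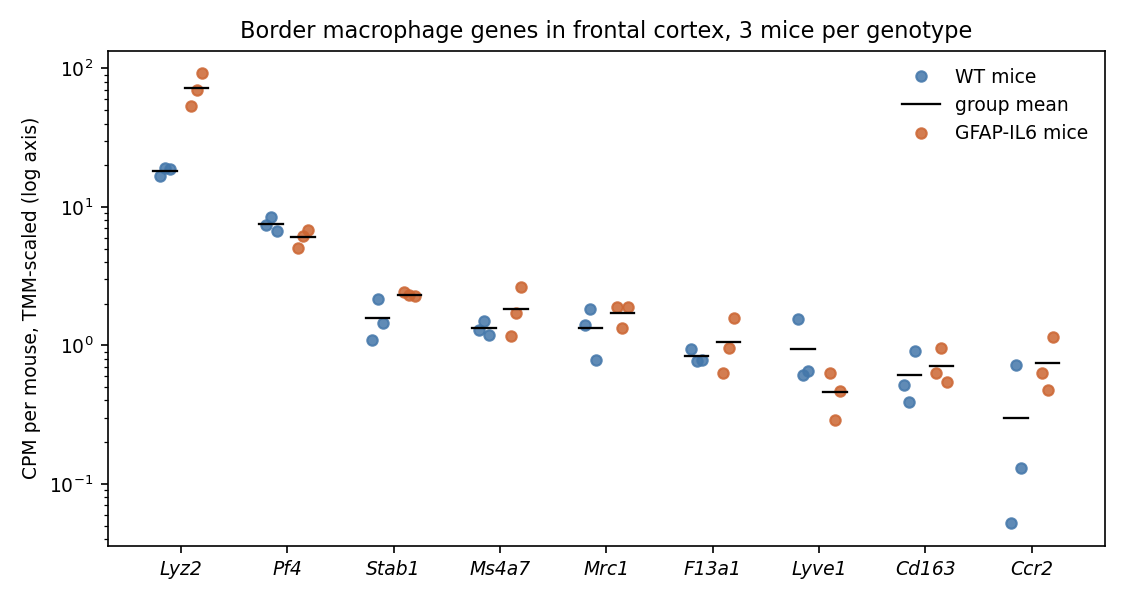
Level of each of the 9 genes in each mouse, in CPM after TMM scaling on a log axis, with 4 libraries summed per mouse; points are the 3 WT (blue) and 3 GFAP-IL6 (orange) mice and bars are group means. The Lyz2 points lie at 16.6 to 19.0 CPM in WT and 53.8 to 92.4 CPM in GFAP-IL6 mice, the points of Stab1 also do not overlap, and those of the other 7 genes do.

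Among the scavenger and lectin receptors, Mrc1, the mannose receptor CD206 (chr2:14229392-14332057), stood at 1.40, 1.83 and 0.787 CPM in WT mice and at 1.90, 1.34 and 1.89 CPM in GFAP-IL6 mice. The groups overlapped, and the log2 fold change was 0.27 (SE 0.365; edgeR adjusted p = 0.915). The 95% interval of the fold ran from 0.702 to 2.07, so a doubling lay just inside it and a rise as large as that of Lyz2 did not. Cd163, the receptor that clears haemoglobin bound to haptoglobin (chr6:124304656-124330527), stood at 0.520, 0.388 and 0.918 CPM in WT mice and at 0.632, 0.959 and 0.544 CPM in GFAP-IL6 mice. These groups overlapped as well, with a fold between 0.593 and 2.71 (edgeR adjusted p = 0.925).

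Stab1, the scavenger receptor stabilin-1 (chr14:31139013-31168641), was the only gene besides Lyz2 whose groups did not overlap. It stood at 1.09, 2.16 and 1.44 CPM in WT mice and at 2.42, 2.30 and 2.25 CPM in GFAP-IL6 mice. Its log2 fold change of 0.55 (SE 0.331) was not called (edgeR adjusted p = 0.726), and the fold lay between 0.898 and 2.39. Every GFAP-IL6 mouse lay above every WT mouse in 8.43% of the genes tested, and below in 5.94%, against 2 and 0 of the 9 genes here. The last exon of Stab1 overlaps Nt5dc2 on the other strand. The strand setting of the counting is not given in the sources used here, so reads there may come from either gene. Nt5dc2 itself was at 1.97 to 4.60 CPM in WT and 3.93 to 5.27 CPM in GFAP-IL6 mice, with overlap.

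Lyve1, a hyaluronan receptor of perivascular macrophages and of lymphatic endothelium (chr7:110850607-110863239), moved the other way in value. It stood at 1.56, 0.609 and 0.656 CPM in WT mice and at 0.632, 0.288 and 0.467 CPM in GFAP-IL6 mice. The groups overlapped narrowly, since GFAP-IL6 mouse 1 was above WT mouse 2. The log2 fold change was -1.16 (SE 0.529; edgeR adjusted p = 0.547), and the interval of the fold, 0.205 to 0.980, is not adjusted for the number of genes. Without WT mouse 1, the highest, the log2 fold change was -0.51 (edgeR adjusted p = 0.882). The lymphatic endothelial markers Prox1, Pdpn, Flt4 and Ccl21a summed to 12.8 to 21.6 CPM in WT and 14.6 to 20.7 CPM in GFAP-IL6 mice, with 0 of the 3 tested called. Their defining chemokine Ccl21a was at 0 to 0.233 CPM.

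Of the secreted products, Pf4, a chemokine stored in platelets and also made by border macrophages (chr5:90772435-90773383), was the best measured after Lyz2. It stood at 7.44, 8.53 and 6.69 CPM in WT mice and at 5.06, 6.14 and 6.87 CPM in GFAP-IL6 mice. The groups overlapped, the log2 fold change was -0.31 (SE 0.180; edgeR adjusted p = 0.712), and the upper bound of the fold was 1.05. The platelet markers Ppbp, Itga2b, Gp9, Gp1bb, Treml1 and Gp6 summed to 6.45 to 8.36 CPM in WT and 6.95 to 7.90 CPM in GFAP-IL6 mice, and 0 of the 3 tested were called. Itga2b and Gp1bb made up most of that sum. Ppbp, a platelet chemokine gene too low for the test, was at 0.468, 0.498 and 0 CPM in WT mice and at 0.527, 1.01 and 0.907 CPM in GFAP-IL6 mice, without overlap. F13a1, the A subunit of coagulation factor XIII (chr13:36867178-37050244), stood at 0.936, 0.775 and 0.787 CPM in WT mice and at 0.632, 0.959 and 1.58 CPM in GFAP-IL6 mice. These groups overlapped, with a fold between 0.720 and 2.56 (edgeR adjusted p = 0.865).

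Ms4a7, a membrane protein gene of the MS4A cluster that marks border macrophages (chr19:11321039-11336146), stood at 1.30, 1.49 and 1.18 CPM in WT mice and at 1.16, 1.73 and 2.64 CPM in GFAP-IL6 mice. GFAP-IL6 mouse 1 was the lowest of all 6 mice and GFAP-IL6 mouse 3 the highest, and the gene was not called (log2 fold change 0.53, SE 0.364; edgeR adjusted p = 0.764). Ccr2, the chemokine receptor by which monocytes leave bone marrow (chr9:124101950-124113557), had the largest standard error of the 9 genes. It had 1, 13 and 1 counts in the WT mice and 6, 10 and 44 in the GFAP-IL6 mice, or 0.0520, 0.720 and 0.131 CPM against 0.632, 0.479 and 1.14 CPM. WT mouse 2 lay above both GFAP-IL6 mice 1 and 2, the log2 fold change was 1.26 (SE 0.692; edgeR adjusted p = 0.668), and a fold anywhere from 0.863 to 6.68 was inside the interval. Without WT mouse 2 the log2 fold change was 3.28 (edgeR adjusted p = 0.173), and without WT mouse 1 it was 0.64 (adjusted p = 0.840).

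**Figure D2:**
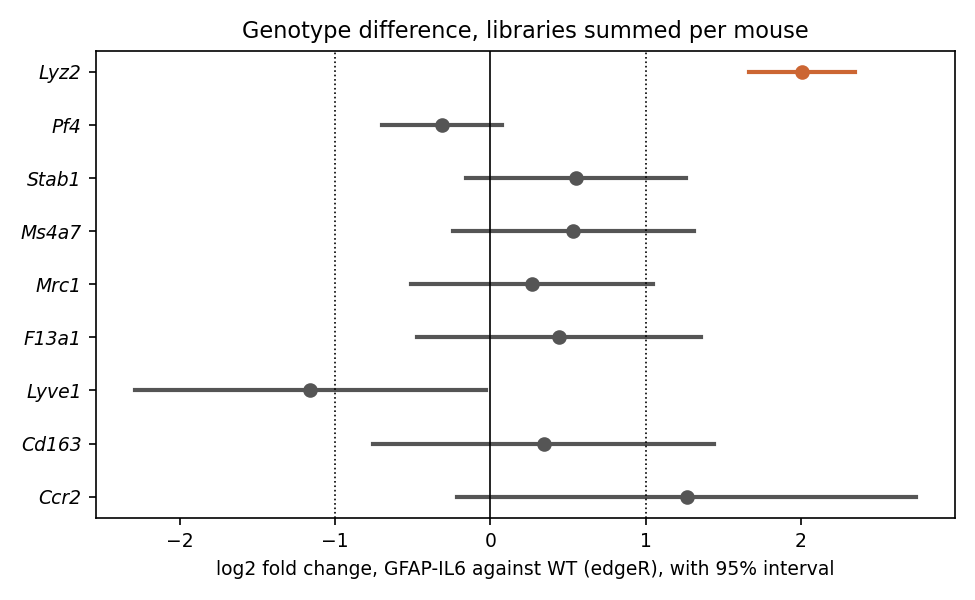
Log2 fold change of each gene between GFAP-IL6 and WT mice from edgeR on summed libraries, with its 95% interval; orange marks a called gene and dotted lines the fold threshold. The interval of Lyz2 (3.17 to 5.10 as a fold) lies above those of 7 of the other 8 genes, and that of Ccr2 overlaps it.

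Low counts limit 7 of the 9 genes. In single libraries, at most 3 counts were found in 4 of 24 libraries for Stab1, 9 for Mrc1, 11 for Ms4a7, 12 for F13a1, 16 for Lyve1 and 17 each for Cd163 and Ccr2. Lyz2 had 32 to 1142 counts in a library, and neither Lyz2 nor Pf4 fell to 3. For the 7 sparse genes the fold intervals given here are wide, so the lack of a call does not mean the lack of a change. The smallest change that could have been called was not computed.

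Summed over the other 8 genes, the level was 14.3, 16.5 and 12.6 CPM in WT mice and 13.1, 14.2 and 17.4 CPM in GFAP-IL6 mice, with overlap. Without Lyz2 and Pf4 the sum was 6.86, 7.97 and 5.90 CPM in WT mice and 8.01, 8.05 and 10.5 CPM in GFAP-IL6 mice, and the lowest GFAP-IL6 mouse lay only just above the highest WT mouse. Lyz2 took 53.8%, 53.6% and 59.8% of the CPM of all 9 genes in WT mice and 80.4%, 83.1% and 84.2% in GFAP-IL6 mice. This is a share of reads and not of transcripts or cells. The share of Lyz2 was higher in each GFAP-IL6 mouse than in any WT mouse.

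Whether Lyz2 rose relative to other macrophage genes was examined in 14 ratios of counts within a mouse, chosen after the values had been seen. The log2 ratio of Lyz2 to Csf1r, the receptor on which macrophages and microglia depend, was -1.45, -1.45 and -1.38 in WT mice and -0.19, 0.03 and -0.06 in GFAP-IL6 mice. The means differed by 1.35, without overlap, at the smallest p that 3 against 3 mice allow (two-sided exact permutation p = 0.1, Benjamini-Hochberg 0.117 over 14 ratios). Lyz2 was also higher, without overlap, relative to 7 of the other 8 genes, with mean log2 differences from 1.33 against Stab1 to 2.91 against Lyve1. Of these 8 ratios, only that to Ccr2 overlapped between genotypes (difference -0.09, exact permutation p = 1). Lyz2 was the only called gene, so its ratios to uncalled genes largely restate its own rise and are no further support. The share of all genes against which Lyz2 would separate in this way was not computed. Against the lysosomal gene Cd68 the difference was 1.04 and against Aif1, which encodes IBA1, it was 0.72, both without overlap. The ratio of Mrc1 to Csf1r overlapped (difference -0.19, exact permutation p = 0.9), whereas that of Pf4 to Csf1r was lower in every GFAP-IL6 mouse by 0.94 on average (exact permutation p = 0.1).

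The 4 library sets repeat the comparison on the same 6 mice with 6 libraries each, so they are technical repeats and share their animals. In 2 ng set A, Lyz2 had 13.4, 16.3 and 23.3 CPM in the WT libraries and 65.8, 66.9 and 91.6 CPM in the GFAP-IL6 libraries. In the libraries of set B with 2 ng the values were 21.2, 22.9 and 21.4 CPM against 60.6, 80.0 and 100.2 CPM. In 1 ng set A they were 15.4, 19.5 and 16.7 CPM against 54.6, 72.1 and 88.0 CPM, and in 1 ng set B 16.8, 18.0 and 16.2 CPM against 40.8, 64.1 and 91.3 CPM. The genotypes did not overlap in any set, and GFAP-IL6 mouse 3 was the highest in each. The log2 fold change of Lyz2 was 2.20 in 2 ng set A (edgeR adjusted p = 2.31e-09), 1.91 in 2 ng set B (adjusted p = 1.13e-08), 2.09 in 1 ng set A (adjusted p = 1.56e-08) and 1.98 in 1 ng set B (adjusted p = 8.87e-06). Lyz2 was thus called in each of the 4 sets, in which 0.681%, 0.744%, 0.774% and 0.755% of genes were called in the same order.

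No other gene of the 9 was called in a set, but few could be tested there. Besides Lyz2, the filter on low counts passed Pf4 in all 4 sets, Stab1 in 2 ng set A and in 1 ng set B, and Mrc1 and Ms4a7 in 1 ng set B alone. In set A, Pf4 had a log2 fold change of -0.42 with 2 ng and -0.07 with 1 ng, and in set B of -0.31 with 2 ng and -0.42 with 1 ng. The value was below 0 in each set, and edgeR's adjusted p was 0.871 or more in all 4. Stab1 had a log2 fold change of 1.44 in 2 ng set A (edgeR adjusted p = 0.503) and of 0.71 in 1 ng set B (adjusted p = 0.888). In the latter set Mrc1 had -0.02 (edgeR adjusted p = 0.997) and Ms4a7 0.57 (adjusted p = 0.921).

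**Figure D3:**
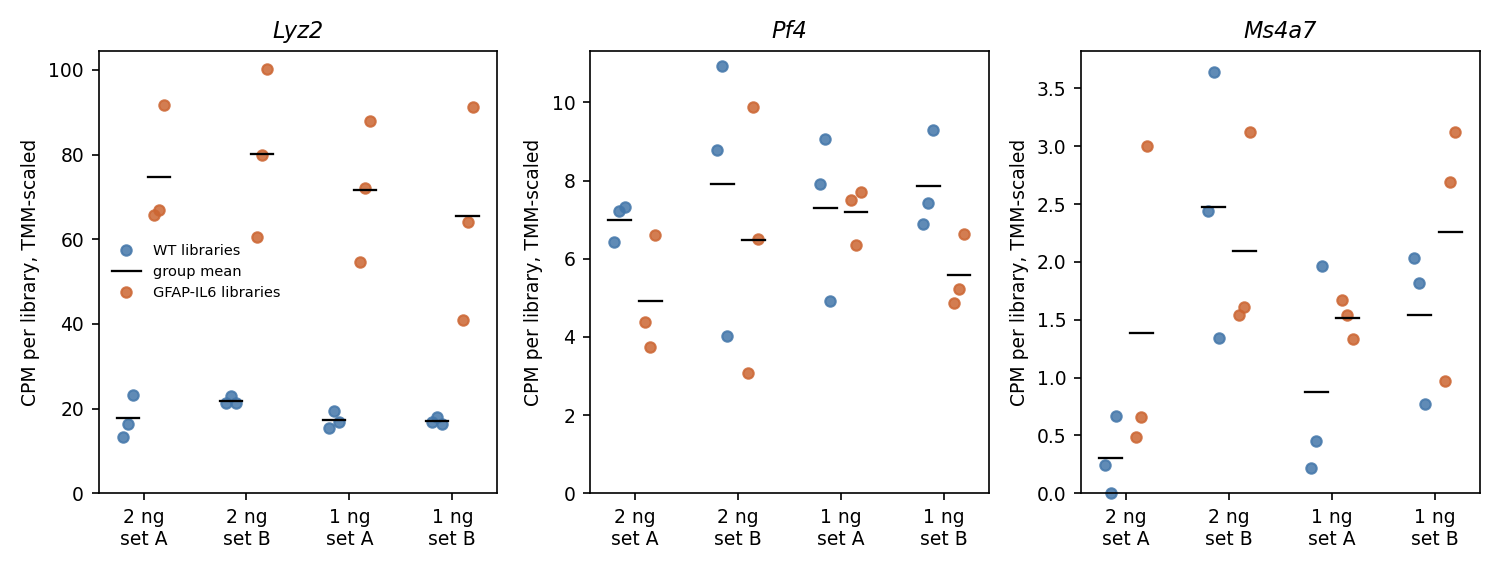
Level of Lyz2, Pf4 and Ms4a7 in each of the 24 libraries, in CPM after TMM scaling, by cDNA amount and set; points are libraries of WT (blue) and GFAP-IL6 (orange) mice and bars are group means. Lyz2 separates the genotypes in all 4 sets, Pf4 overlaps in 3 of them, and the WT means of Ms4a7 are lower in set A (0.304 CPM with 2 ng and 0.878 CPM with 1 ng) than in set B (2.47 and 1.54 CPM), although 1 WT library of set A, at 1.97 CPM, lies among those of set B.

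The conditions of library preparation, which the series was made to compare, were set against each other with mouse as a block. Genes were called at an adjusted p under 0.05 at any fold. The paper's method pools samples after reverse transcription, before amplification and tagmentation. An amount or a set may thus have been applied to a pool, so the 6 mice may not be independent replicates of it. Which libraries shared a pool was not examined. Between 2 ng and 1 ng of cDNA, 33.3% of genes tested were called, and so was 1 of the 5 tested here. Lyz2 was higher with 2 ng by 0.13 on the log2 scale (SE 0.0528; edgeR adjusted p = 0.0389), in 6 of 6 mice, with differences from 0.05 to 0.43. The call was lost under DESeq2 (log2 fold change 0.16, adjusted p = 0.114) and without the filter on low counts (edgeR, 0.13, adjusted p = 0.0716), with values of similar size. Between sets B and A, 23.3% of genes tested were called, and so was 1 of the 6 tested here, Ms4a7. It was higher in set B by 1.14 (SE 0.363; edgeR adjusted p = 0.0127), in 5 of 6 mice.

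The set difference of Ms4a7 was large in 2 WT mice. WT mouse 1 had 2 counts in set A and 23 in set B, WT mouse 2 had 2 and 25, and WT mouse 3 had 5 and 4. The GFAP-IL6 mice had 5 and 6, 11 and 25, and 38 and 64 counts. Scaled to library totals, the 2 WT mice went from 0.231 and 0.243 CPM in set A to 2.21 and 2.50 CPM in set B, while GFAP-IL6 mouse 1 stayed at 1.12 and 1.18 CPM. A test of whether the set difference depended on genotype, chosen after the values had been seen, gave -1.51 (SE 0.795; edgeR unadjusted p = 0.0603, adjusted p = 0.999). In this test edgeR called 0 of 13581 genes, with 583 at an unadjusted p under 0.05. At such low counts this does not show that the set difference was the same in both genotypes. The log2 difference between sets, 1.14, stands beside a genotype value of 0.53 for Ms4a7, and the part of the sets in the latter was not tested. Lyz2 had a set difference of 0.03 (edgeR adjusted p = 0.800) and Pf4 of 0.06 (adjusted p = 0.836).

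Other genes listed for border macrophages gave 2 calls of 11 tested, both higher, where 1.20% of all genes tested were called higher. In the same list Clec12a, Cd209f, Cd209g and Cd209b were lower in every GFAP-IL6 mouse than in every WT mouse. Clec12a and Cd209f were tested and not called, whereas Cd209g and Cd209b were too low for the test. Every GFAP-IL6 mouse lay below in 5.94% of all genes tested, a share that leaves out Cd209g and Cd209b. The median log2 fold change of the list was 0.13. Over the 9 genes the median was 0.44, and over all 14621 genes tested it was -0.01. Ms4a6c, of the same gene cluster as Ms4a7, was at 0.936 to 1.84 CPM in WT and 4.92 to 6.85 CPM in GFAP-IL6 mice (log2 fold change 1.99, SE 0.289; edgeR adjusted p = 0.00100). Ltc4s, which makes leukotriene C4, was at 17.1 to 17.6 CPM and 28.1 to 39.2 CPM (log2 fold change 1.03, SE 0.129; edgeR adjusted p = 0.000261). Of 10 listed paralogues of the 9 genes, 6 were tested and 2 were called, both higher, among them Ms4a6d of the MS4A cluster, which rose by 2.29 (edgeR adjusted p = 2.63e-05). Of genes listed as ligands and growth factors, 1 of 5 tested was called, the CCR2 ligand gene Ccl12, at 5.98 to 6.82 CPM in WT and 80.4 to 101 CPM in GFAP-IL6 mice (log2 fold change 3.81; edgeR adjusted p = 1.20e-10).

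Genes shared by macrophages and microglia rose as a group, with 6 of 8 called and all 8 at an adjusted p under 0.05 (edgeR), where 1.74% of all genes tested were higher at that p. Fcgr1, the high-affinity receptor for IgG, rose by 1.91 (edgeR adjusted p = 0.000114), Ptprc, which encodes CD45, by 1.78 (adjusted p = 0.00144) and Adgre1, which encodes F4/80, by 1.37 (adjusted p = 0.00904). Itgam, which encodes CD11b, was at 5.77 to 6.45 CPM in WT and 13.5 to 22.1 CPM in GFAP-IL6 mice (edgeR adjusted p = 7.47e-05). Of 10 microglia markers, 1 was called, the secreted protein gene Olfml3 (log2 fold change 1.25; edgeR adjusted p = 0.00513), and the list's median was 0.58. The summed level of the microglia markers was 371 to 417 CPM in WT and 549 to 707 CPM in GFAP-IL6 mice. The part of these cells in the rise of Lyz2 was not tested.

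Markers of blood cells were not called in either direction. Of 12 monocyte genes, 5 were tested and 0 were called, and their sum was 9.20 to 14.4 CPM in WT and 9.59 to 11.3 CPM in GFAP-IL6 mice. Vcan, Itga4 and Emilin2, which other cells also express, made up most of that sum. Ly6c2, which defines inflammatory monocytes, had 1, 0 and 0 counts in the WT mice and 0, 5 and 13 in the GFAP-IL6 mice, too few for the test. Plac8, also too low for the test, was at 0.156, 0 and 0.131 CPM in WT mice and at 0.316, 0.527 and 0.518 CPM in GFAP-IL6 mice, without overlap (two-sided exact permutation p = 0.1, the smallest possible). Neutrophil markers, whose cells also carry Lyz2, summed to 0.525 to 3.77 CPM in WT and 2.06 to 6.22 CPM in GFAP-IL6 mice, with 0 of 2 tested called. Lymphocyte markers (81.2 to 85.2 CPM against 72.4 to 83.9 CPM), dendritic cell markers (8.80 to 9.98 CPM against 7.69 to 11.2 CPM) and red blood cell markers (751 to 1034 CPM against 702 to 958 CPM) overlapped between genotypes and held 0 calls. Nearly all of the lymphocyte sum was the T cell receptor gene Trbc2 (77.5 to 83.8 CPM in WT and 70.5 to 81.0 CPM in GFAP-IL6 mice). That sum thus says little about the other lymphocyte markers. Cd3e had 0, 0 and 1 counts in the WT mice and 0, 0 and 8 in the GFAP-IL6 mice. For Cd3g the counts were 0, 2 and 0 against 2, 1 and 20, and for Cd8a 0 in each WT mouse against 0, 3 and 3. Cd79a and Ms4a1 had at most 3 counts in any mouse. The dendritic cell marker Itgax had 0 counts in each WT mouse and 2, 5 and 21 in the GFAP-IL6 mice. It was too low for the test, and the rest of its list overlapped. Nkg7, of cytotoxic lymphocytes, was too low for the test and did not overlap, at 0 to 0.260 CPM in WT and 0.285 to 0.632 CPM in GFAP-IL6 mice. The part of these cells in the values of the 9 genes was not tested.

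The border tissue caught in a dissection could differ between mice. Meningeal fibroblast markers summed to 41.4 to 79.1 CPM in WT and 47.6 to 69.7 CPM in GFAP-IL6 mice, with 0 of 7 called. Slc47a1 of that list was at 3.02, 4.04 and 2.23 CPM in WT mice and at 1.37, 0.527 and 1.97 CPM in GFAP-IL6 mice. It was lower without overlap but not called (log2 fold change -1.25; edgeR adjusted p = 0.222), and the rest of the list overlapped. Choroid plexus markers summed to 106 to 4071 CPM in WT and 78.0 to 751 CPM in GFAP-IL6 mice, with 0 of 5 tested called. WT mouse 3 stood apart there, with 4035 CPM of Ttr, the transthyretin gene of choroid plexus. Without any one mouse, that mouse included, Lyz2 stayed called and none of the other 8 genes gained a call. Markers listed for cortex neurons summed to 4040 to 4674 CPM in WT and 3848 to 4487 CPM in GFAP-IL6 mice. Most of that sum was Snap25, which other neurons also express (3343 to 4033 CPM in WT and 3204 to 3825 CPM in GFAP-IL6 mice). The sum thus shows neurons in every mouse but does not identify the brain region.

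**Figure D4:**
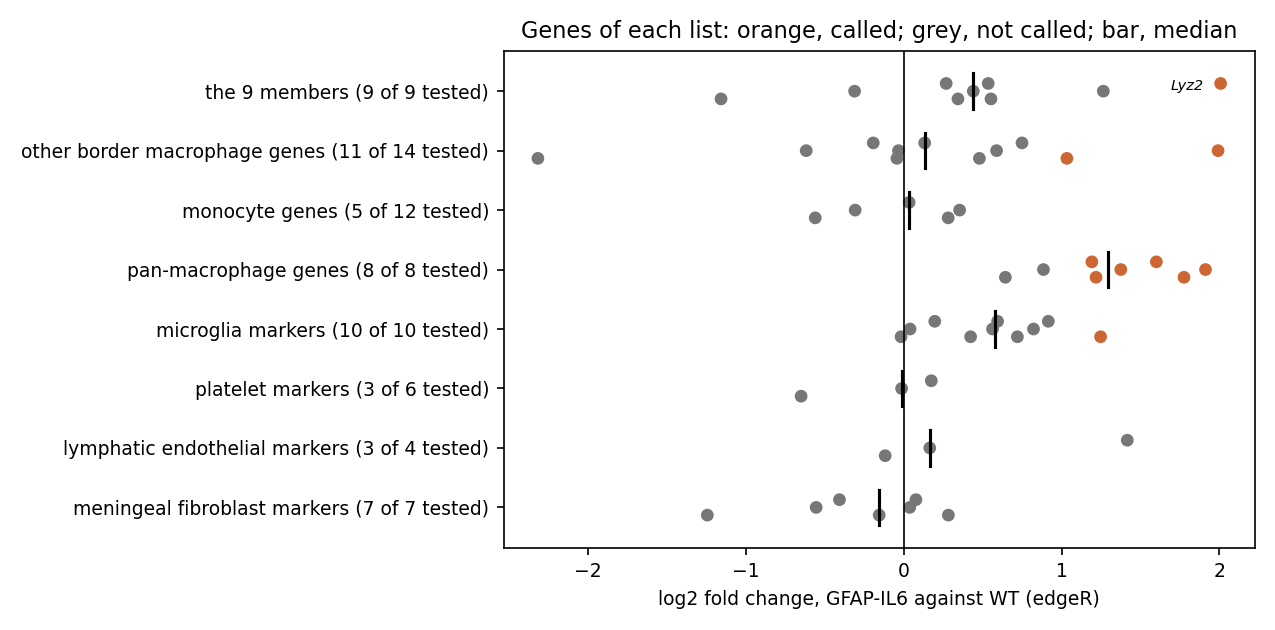
Log2 fold change between GFAP-IL6 and WT mice (edgeR, summed libraries) of every tested gene in 8 lists; orange points are called genes, grey points are not, and bars are list medians. Lyz2, at 2.01, is the only called gene of the 9, whereas 6 of 8 pan-macrophage genes are called and the medians of the platelet, lymphatic endothelial, meningeal fibroblast and monocyte lists lie between -0.16 and 0.16.

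The genes most like Lyz2 across the 6 mice, among 10734 genes of at least 5 CPM outside the 9, were Plek, a substrate of protein kinase C in blood cells (Pearson r = 0.998 on log2 CPM), the interferon-induced gene Ifitm3 (r = 0.997) and C1qb, a chain of complement C1q (r = 0.997). All 3 were higher in each GFAP-IL6 mouse than in any WT mouse. Those values span 2 genotypes, so they follow the genotype difference. The genes most like Mrc1 were the replication helicase gene Mcm4 (r = 0.994), Actl6a (r = 0.989) and Cntn5 (r = 0.987), none of which was called between genotypes. With so many candidates and only 6 mice, these values are descriptions.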

How the data were processed

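The authors trimmed polyA from the reads, aligned them with STAR 2.4 to the mouse genome and deposited raw counts per gene from featureCounts, without normalization. The labels' processing notes name the human build hg19, whereas the methods name mm10, which the mouse gene identifiers fit, so mm10 was used. Positions are from a later GENCODE annotation of mm10.

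The counts of 4 libraries were summed per mouse. Genotypes were compared with edgeR 4.0.16 (R 4.3.3), by its quasi-likelihood test after TMM scaling and filterByExpr, with Benjamini-Hochberg adjustment over all genes tested. cDNA amounts and sets were compared with mouse as a block. Two-sided exact permutation tests of 3 against 3 mice cannot give a p under 0.1. The alternatives were DESeq2 1.42.0 with its Wald test, its size factors, no filter, at least 10 counts in every column, a block of same-numbered mice and leaving out each mouse. The study's methods used DESeq2, here an alternative to edgeR. The scripts were tested on simulated data. Libraries had 1524165 to 12256374 counted reads. Reads lack molecular identifiers, so counts carry amplification error too.

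The 9 genes and the lists (other border macrophage, monocyte, pan-macrophage, microglia, neutrophil, lymphocyte, dendritic, platelet, lymphatic endothelial, meningeal fibroblast, choroid plexus, red blood cell and neuron genes, ligands and paralogues) were chosen with earlier results of these data known. Named from each list were up to 4 called genes by absolute log2 fold change, or up to 2 of highest CPM where none was called. Other names were chosen after their values were seen, and some results are not reported here. The labels do not say that mice of a genotype came from separate litters.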

Additional observations from a re-analysis of the deposited data

How the results depend on the processing

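Lyz2 kept its call in the summed comparison under all 11 alternatives, with log2 fold changes from 1.78 to 2.17 and adjusted p from 1.27e-64 (edgeR without the filter on low counts; DESeq2 gave 1.87e-30) to 2.56e-05, and in each of the 4 sets. None of the other 8 genes gained a call under any alternative that could fit it. The log2 fold change of F13a1 changed sign in 1 of 10 settings (-0.02 without GFAP-IL6 mouse 3), that of Lyve1 was -0.51 without WT mouse 1, and that of Ccr2 ran from 0.64 to 3.28. Deviations of mice with the same number had r of -0.0466, -0.035 and -0.0421, and those of other pairs had r from -0.0591 to 0.109. These values cannot show whether mice with the same number were handled together. The replicate block moved calls from 180 to 149 in the summed comparison, and from 91 to 59 with 2 ng in set B.

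Counts over all genes moved more. Leaving out 1 mouse gave 106 to 201 calls in the summed comparison. In set A it gave 46 to 102 with 2 ng (83 with all mice) and 52 to 115 with 1 ng (96), and in set B 45 to 114 with 2 ng (91) and 45 to 113 with 1 ng (98), each lowest without GFAP-IL6 mouse 3. At least 10 counts in every column, which leaves fewer genes to test, gave 40 (2 ng) and 53 (1 ng) calls in set A and 39 with 2 ng in set B. Between cDNA amounts the 1 call among the 9 genes, Lyz2, fell to 0 with DESeq2, with no filter and without the mouse block, and all calls fell from 4462 to 1714 without the block. Between sets the 1 call, Ms4a7, fell to 0 without the block, where all calls fell from 3169 to 1015. The cause was not tested. DESeq2 gave Ms4a7 no adjusted p, so its call there is not counted.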

Other observations

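The lectin genes Cd209f, Cd209g and Cd209b, listed with the other border macrophage genes and named after their values were seen, had values in the other direction from Lyz2. Cd209f had 20, 21 and 6 counts in the WT mice and 0, 2 and 13 in the GFAP-IL6 mice, or 1.04, 1.16 and 0.787 CPM against 0, 0.0959 and 0.337 CPM. Every GFAP-IL6 mouse lay below every WT mouse, and the log2 fold change of -2.32 (SE 0.613) was not called (edgeR adjusted p = 0.0862). Cd209g had 6, 8 and 2 counts in the WT mice and 0 in each GFAP-IL6 mouse, and it was too low for the test. With a floor of 3 counts set over the GFAP-IL6 group, and the WT counts taken as they are, it was 8-fold lower. Cd209b had 5, 2 and 1 counts against 0 in each GFAP-IL6 mouse, 4-fold lower by the same floor. The related Cd209a, listed as a dendritic cell marker, had 10, 10 and 0 counts in WT and 3, 7 and 17 in GFAP-IL6 mice, with overlap. The floor covers counting error in the GFAP-IL6 zeros only. It leaves out counting error in the WT counts and the spread between mice, so these folds are not lower bounds.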
